A study of Rattus norvegicus with 6 samples.

Results

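The 9 genes described here are retinal transcripts known from amacrine cells, the inhibitory interneurons of the inner retina, and were chosen by name from the deposited count table. Gad1, Gad2 and Slc32a1 serve GABA, Slc6a9 serves glycine, Th dopamine, and Chat and Slc18a3 acetylcholine, while Tfap2a and Tfap2b encode AP-2 transcription factors. All 9 were found among the 34335 genes of the table, and all 9 passed the filter on low counts that left 18571 genes to test. RNA came from whole retinas of wild-type BN rats, an inbred pigmented strain, after an injection of 2 µL into the vitreous. DMP, a cationic micelle known here only by its code name, was given at 10 mg/mL in water to 3 samples, and saline was given to the other 3. The vehicles therefore differ, and an effect of DMP and of its vehicle cannot be told apart. Samples carry the numbers 30, 31 and 33 in both groups. The labels state neither the age of the rats nor the time from injection to collection. They also do not say that each library is a different animal; p-values therefore cover the spread between these libraries, which may be technical.

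Amacrine cells carry signals sideways between bipolar, ganglion and other amacrine cells. Most release GABA or glycine, which inhibit their targets, while sparse classes pair GABA with a second transmitter. Dopaminergic amacrine cells adjust the retina to light, and starburst amacrine cells, which release acetylcholine and GABA, underlie the direction selectivity of ganglion cells. AP-2 factors act in the formation of amacrine and horizontal cells. Several of these genes are not confined to amacrine cells: rodent horizontal cells can also hold GABA genes and AP-2 factors.

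Library totals ran from 47842234 to 52529314 counts with DMP and from 50900221 to 53255925 with saline. The photoreceptor markers that define retina summed to between 60594 and 63476 CPM (scaled counts per 1e6 reads) with DMP and between 60738 and 64326 CPM with saline. Among markers of the amacrine lineage, Pax6 averaged 257.4 ± 8.08 CPM in DMP libraries and 272.0 ± 11.7 CPM in saline libraries (SD, n = 3 each), while Ptf1a, a factor of the developing lineage, had 0 counts in all 6 libraries. On the leading principal component DMP 30, 31 and 33 were at -53.0, -7.01 and 0.135, and saline libraries at 17.9 to 23.4. The groups did not overlap on it, and DMP 30 also stood apart from the other DMP libraries. The share of 18S ribosomal RNA, Rn18s, was higher in every DMP library (0.0439% to 0.159% of counts) than in every saline library (0.0121% to 0.0338%). Its part in the results was not tested.

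The transcripts of all transmitter classes lay close together after DMP and after saline. In the quasi-likelihood test of edgeR, 0 of the 9 genes passed a Benjamini-Hochberg adjusted p of 0.05, where 0.0215% of all genes tested did (4 of 18571). At an unadjusted p below 0.05 the count was again 0 of 9, against 4.64% of all genes. DESeq2 and limma-voom also called 0 of the 9, where they called 0.495% and 0.0215% of all genes. Log2 fold changes lay between -0.37 for Slc18a3 and 0.05 for Tfap2a. They were below 0 for 5 genes and above 0 for 4, beside 50.0% below 0 among all genes. For 8 of the 9 the 95% interval of the fold change stayed within a log2 of 0.5 in either direction, as it did for 64.7% of all genes. Slc18a3, whose interval reached further down, was the exception. The median log2 fold change was -0.03 over the 9 genes and -0.00011 over all genes tested. In whole tissue, fewer cells of a type and less RNA per cell cannot be told apart.

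**Figure D1:**
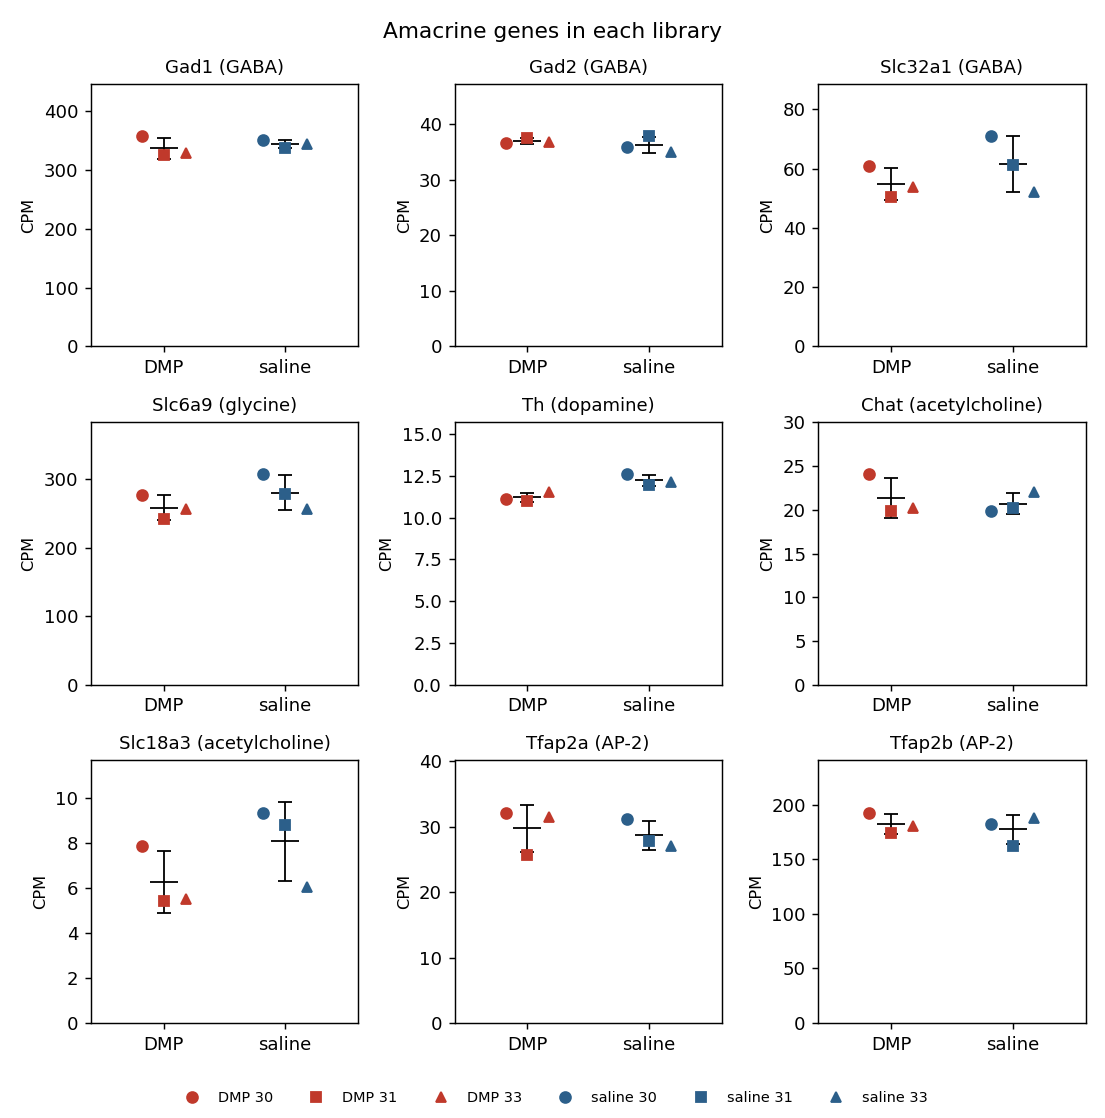
Scaled counts per 1e6 reads (CPM) of each gene in each library, with DMP libraries on the left and saline libraries on the right of every panel; bars show the mean and SD of 3 libraries. Every axis starts at 0, and the groups overlap for every gene except Th, where DMP libraries reach 11.5 CPM and saline libraries start at 11.97 CPM.

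Gad1 and Gad2 encode the 2 glutamate decarboxylases that make GABA. Gad1 was at 357.5, 325.0 and 329.2 CPM in DMP 30, 31 and 33, against 350.7, 337.3 and 344.8 CPM in saline 30, 31 and 33. All 6 values lay close together, and the groups overlapped. Its change was -2.03% with a 95% interval from -9.36% to 5.90% (log2 fold change -0.03, SE 0.05, edgeR adjusted p = 1.00). Gad2, whose product makes GABA largely at nerve terminals, was at 36.5, 37.5 and 36.8 CPM in DMP libraries, against 35.9, 37.8 and 35.1 CPM in saline libraries. The saline values enclosed the DMP values, and the change was 1.88% with an interval from -7.59% to 12.3%. Gad2 had the lowest coefficient of variation of the 9 genes within the DMP group, at 1.39% over 3 libraries, beside 3.91% in the saline group.

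The windows around the annotated starts of Gad1 and Gad2 are shown because both genes serve the same reaction, on chromosomes 3 and 17, and both windows hold the AP-2 consensus. Each window covers 250 bases before and 50 bases after the start, from RefSeq on build GRCr8, on the strand of the gene: chr3:75777202-75777501 (+) for Gad1 and chr17:89671468-89671767 (+) for Gad2. Capitals mark matches to GCCNNNGGC, the AP-2 consensus, which reads the same on both strands.
Gad1: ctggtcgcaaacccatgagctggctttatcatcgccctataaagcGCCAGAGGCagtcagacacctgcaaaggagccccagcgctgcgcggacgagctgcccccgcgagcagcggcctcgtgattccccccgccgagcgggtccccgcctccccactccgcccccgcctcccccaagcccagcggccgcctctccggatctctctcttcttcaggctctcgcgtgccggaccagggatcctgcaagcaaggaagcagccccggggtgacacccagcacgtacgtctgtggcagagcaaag
Gad2: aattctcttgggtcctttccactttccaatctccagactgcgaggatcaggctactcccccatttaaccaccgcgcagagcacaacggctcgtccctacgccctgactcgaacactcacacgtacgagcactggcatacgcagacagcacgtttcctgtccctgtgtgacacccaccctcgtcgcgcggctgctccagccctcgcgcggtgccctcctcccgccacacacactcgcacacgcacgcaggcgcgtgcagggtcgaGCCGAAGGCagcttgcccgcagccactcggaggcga
Windows were found for 7 of the 9 genes, and 3 of the 7 held GCCNNNGGC (Gad1, Gad2 and Th), as did 15.1% of 33469 windows of this length. The windows of these 7 genes held 57.3% to 73.7% G and C. Over all windows the median was 51.7% and the upper quartile 60.3%. Chat, at 57.3%, and Slc6a9, at 59.0%, lay between that median and that quartile. A match describes the letters and does not show binding.

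Slc32a1 encodes the vesicular transporter that loads GABA and glycine into synaptic vesicles. It was at 60.9, 50.3 and 53.7 CPM in DMP 30, 31 and 33, against 71.0, 61.3 and 52.1 CPM in saline 30, 31 and 33. Saline 33 lay below DMP 30 and DMP 33, so the groups overlapped. The log2 fold change was -0.16 (SE 0.10, 95% interval -0.39 to 0.07, edgeR adjusted p = 1.00), a change of -10.5%. Slc32a1 lies on chromosome 3 from 147267373 to 147271842 on mRatBN7.2, the same chromosome as Gad1, from 55369704 to 55410335.

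Slc6a9 encodes GlyT1, the transporter that takes up glycine and that is found in glycinergic amacrine cells. Its levels were 277.1, 241.4 and 256.1 CPM in DMP 30, 31 and 33, against 306.7, 278.0 and 256.1 CPM in saline 30, 31 and 33. As with Slc32a1, saline 30 was the highest of the 6 libraries and saline 33 lay among the DMP libraries. The change was -7.86%, with an interval from -17.3% to 2.70% (log2 fold change -0.12, SE 0.07, edgeR adjusted p = 1.00). Ccdc24, on the opposite strand, overlaps Slc6a9 and had 46 to 52 counts with DMP and 42 to 66 with saline.

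Th encodes tyrosine hydroxylase, the enzyme that limits dopamine synthesis and that marks the few dopaminergic amacrine cells. It was at 11.1, 11.0 and 11.5 CPM in DMP 30, 31 and 33, against 12.58, 11.97 and 12.14 CPM in saline 30, 31 and 33. Every DMP library lay below every saline library, the case for 1 of the 9 genes and for 4.88% of all genes. Its log2 fold change was -0.13 (SE 0.09, 95% interval -0.33 to 0.08, edgeR adjusted p = 1.00), a change of -8.37% that did not pass. The coefficient of variation of Th was 2.47% in DMP libraries and 2.59% in saline libraries. Its counts were 521 to 589 with DMP and 631 to 642 with saline. With 3 values per group such spreads are poorly known, and they do not make the difference between groups more certain. A gene on the opposite strand, LOC120099959, overlaps Th and had 15 to 26 counts with DMP and 24 to 30 with saline.

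The window around the Th start is shown because Th was the gene whose groups did not overlap, and because it holds a cyclic AMP response element. It covers chr1:207508169-207508468 (-) on GRCr8, and capitals mark TGACGTCA, the consensus of that element, and the AP-2 consensus near the upstream end.
Th: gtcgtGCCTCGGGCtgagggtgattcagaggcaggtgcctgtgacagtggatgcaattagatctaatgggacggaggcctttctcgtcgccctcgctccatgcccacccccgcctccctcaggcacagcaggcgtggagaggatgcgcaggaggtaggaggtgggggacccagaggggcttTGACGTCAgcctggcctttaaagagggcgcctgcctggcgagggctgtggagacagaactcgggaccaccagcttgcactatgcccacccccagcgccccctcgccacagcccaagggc
TGACGTCA begins 69 bases before the annotated start. It was found in 1 of the 7 windows and in 1.83% of all windows, searched on both strands. It does not overlap the AP-2 match.

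Chat, which makes acetylcholine, was at 24.0, 19.8 and 20.2 CPM in DMP 30, 31 and 33, against 19.8, 20.2 and 22.0 CPM in saline 30, 31 and 33. DMP 30 was the highest library, and the other DMP libraries lay at the level of saline 30 and 31. Its log2 fold change was 0.05 (SE 0.09, 95% interval -0.16 to 0.25, edgeR adjusted p = 1.00), and -0.05 without DMP 30.

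Slc18a3 encodes the vesicular acetylcholine transporter, which loads what Chat has made, and had the widest spread of the 9 genes. Its level was 7.87, 5.41 and 5.51 CPM in DMP 30, 31 and 33, against 9.35, 8.82 and 6.06 CPM in saline 30, 31 and 33. DMP 31 and 33 were the lowest libraries, but DMP 30 lay above saline 33, so the groups overlapped. The log2 fold change was -0.37 (SE 0.20, 95% interval -0.80 to 0.06, edgeR adjusted p = 1.00), a change of -22.4%. With 1 library left out it ran from -0.25 (without saline 30) to -0.56 (without DMP 30). The coefficient of variation was 22.2% in DMP libraries and 21.9% in saline libraries, and counts were 257 to 412 with DMP and 315 to 475 with saline.

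Both cholinergic genes come from a shared locus. Slc18a3, on chromosome 16 from 7713630 to 7716491 on mRatBN7.2, lies inside Chat, from 7657362 to 7717093, on the same minus strand. Reads from shared sequence can be given to either gene, so the split of counts between them is uncertain. The count of Slc18a3 per count of Chat was 0.327, 0.273 and 0.272 in DMP 30, 31 and 33, against 0.472, 0.436 and 0.275 in saline 30, 31 and 33. Saline 33 matched DMP 31 and 33 in this ratio, while saline 30 and 31 stood above all others. With both genes summed, the locus was at 31.9, 25.2 and 25.8 CPM in DMP libraries, against 29.2, 29.0 and 28.1 CPM in saline libraries. Its log2 fold change was -0.06 (SE 0.09, edgeR adjusted p = 1.00), an alternative chosen after the data were seen. Their start windows are shown because the starts lie 602 bases apart and differ in sequence, at chr16:7723367-7723666 (-) for Chat and chr16:7722765-7723064 (-) for Slc18a3 on GRCr8. Neither holds TGACGTCA or GCCNNNGGC, so no base is in capitals.
Chat: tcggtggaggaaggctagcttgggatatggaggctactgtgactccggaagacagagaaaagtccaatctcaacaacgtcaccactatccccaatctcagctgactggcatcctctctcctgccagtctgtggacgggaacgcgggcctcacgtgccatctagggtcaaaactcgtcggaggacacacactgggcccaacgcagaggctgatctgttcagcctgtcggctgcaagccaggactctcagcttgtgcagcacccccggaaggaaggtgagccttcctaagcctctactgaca
Slc18a3: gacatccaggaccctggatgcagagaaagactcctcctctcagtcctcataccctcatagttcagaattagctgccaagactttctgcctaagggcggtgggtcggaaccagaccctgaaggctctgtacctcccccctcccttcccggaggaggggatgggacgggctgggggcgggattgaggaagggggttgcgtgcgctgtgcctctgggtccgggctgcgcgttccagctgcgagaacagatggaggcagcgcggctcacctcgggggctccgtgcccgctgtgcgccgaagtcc

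The AP-2 class of Tfap2a and Tfap2b was the class with both members above 0. Tfap2c, an AP-2 gene outside the 9, went the other way, with a log2 fold change of -0.14 (SE 0.09, 95% interval -0.35 to 0.06). Tfap2a was at 32.1, 25.6 and 31.4 CPM in DMP 30, 31 and 33, against 31.2, 27.8 and 27.0 CPM in saline 30, 31 and 33. DMP libraries were both the highest and the lowest. Tfap2b was at 192.9, 174.3 and 180.9 CPM in DMP 30, 31 and 33, against 182.1, 162.6 and 188.2 CPM in saline 30, 31 and 33. Saline 31 was the lowest library and DMP 30 the highest, with the others between. The log2 fold change was 0.05 for Tfap2a (SE 0.10, 95% interval -0.16 to 0.27) and 0.04 for Tfap2b (SE 0.06, interval -0.10 to 0.18), with an edgeR adjusted p of 1.00 for each. These signs are not firm: without DMP 30 Tfap2a was at -0.0068 and Tfap2b at -4.63e-05, and Tfap2b was at -0.02 without saline 31. Surface epithelium and pigment cells are also known to hold Tfap2a. The 8 surface epithelium markers found in the table summed to 6.11 to 21.4 CPM in DMP libraries and 1.603 to 14.3 CPM in saline libraries. Summed over 9 pigment cell markers the level was 33.04 to 51.6 CPM in DMP libraries and 50.7 to 119.5 CPM in saline libraries. Of these, Oca2 had 0 counts in all 3 DMP libraries and in saline 33, and 32 and 25 counts in saline 30 and 31. Their part in the AP-2 values was not tested.

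**Figure D2:**
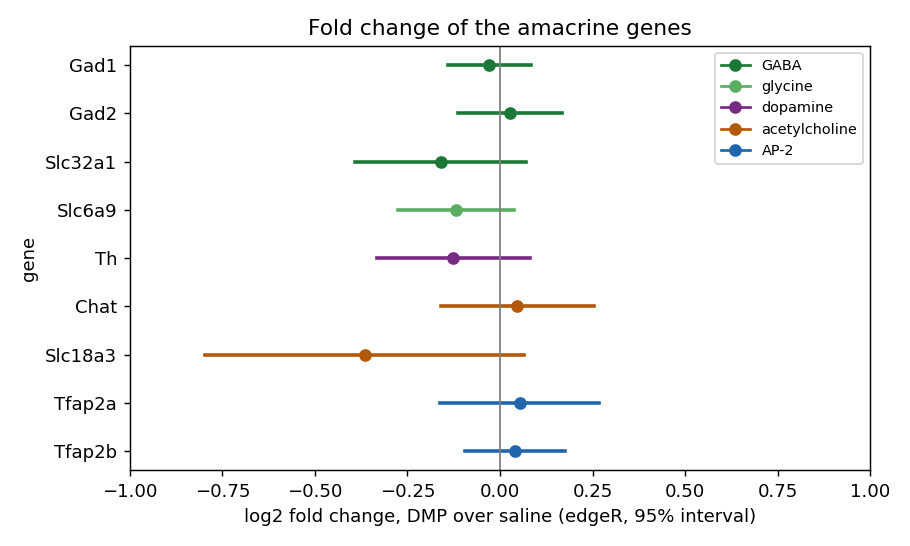
Log2 fold change of each gene, DMP over saline, from edgeR, with bars for the 95% interval and colours for the transmitter classes. All 9 intervals cross 0, and that of Slc18a3 is the widest, from -0.80 to 0.06.

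Transmitter classes were compared within each library, where depth and scaling cancel, as the log2 ratio of summed CPM. The sums are not corrected for length, so the member with the most counts weighs most. That member was Gad1 for GABA, Chat for acetylcholine and Tfap2b for AP-2. For Th relative to Gad1 alone the means differed by -0.095. The class medians given below weigh each member alike. The dopamine gene Th relative to the 3 GABA genes was at -5.35, -5.23 and -5.19 in DMP 30, 31 and 33, against -5.18, -5.19 and -5.15 in saline 30, 31 and 33. The groups only just failed to overlap, with DMP 33 at -5.18885 and saline 31 at -5.18835. Their means differed by -0.08, or by -0.04 without DMP 30. Acetylcholine genes relative to GABA genes were at -3.83, -4.03 and -4.03 in DMP libraries, against -3.97, -3.91 and -3.94 in saline libraries. DMP 30 was above and the other DMP libraries below all saline libraries, so the mean difference of -0.02 averages values on both sides, and it was 0.02 with FPKM in place of CPM and -0.09 without DMP 30. The glycine gene relative to GABA genes was at -0.72, -0.77 and -0.71 in DMP libraries and at -0.58, -0.65 and -0.75 in saline libraries. AP-2 genes relative to GABA genes were at -1.02, -1.05 and -0.98 in DMP libraries and at -1.10, -1.20 and -1.005 in saline libraries. Groups overlapped for both, with a mean difference of -0.07 for glycine, or -0.03 without saline 30 and -0.12 without saline 33. For AP-2 it was 0.09, or 0.04 without saline 31 and 0.13 without saline 33. These ratios are descriptions without a test. By class, the median log2 fold change was -0.03 for the GABA genes, -0.12 for glycine, -0.13 for dopamine, -0.16 for acetylcholine and 0.05 for AP-2. The acetylcholine median lies midway between genes of opposite sign, and was -0.31 without DMP 30 and -0.09 without DMP 31.

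**Figure D3:**
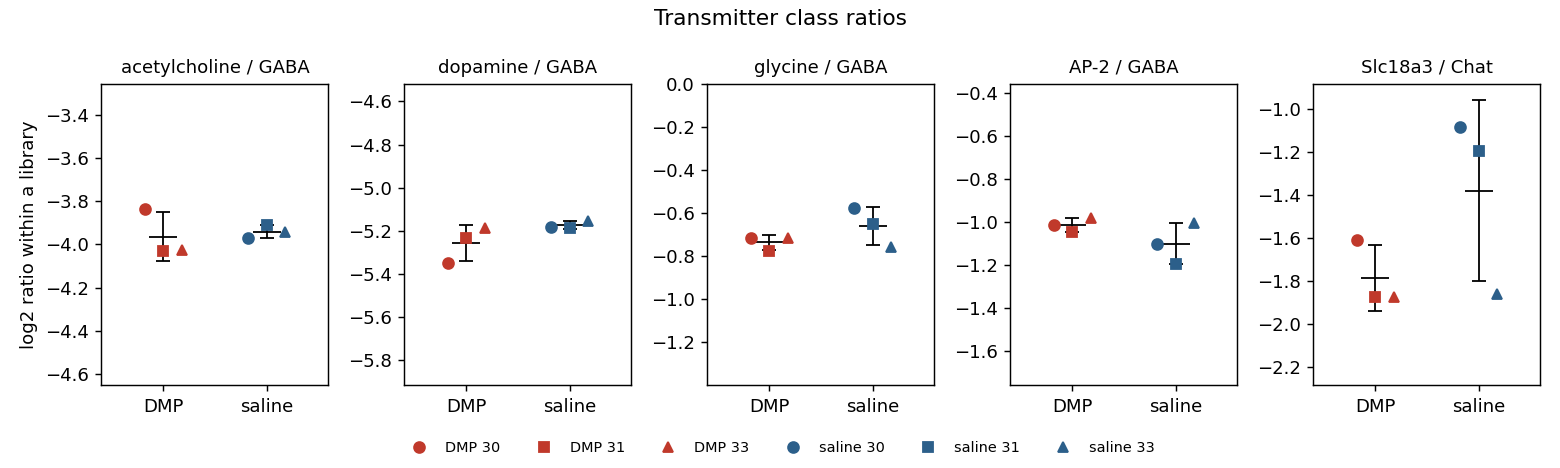
Log2 ratios within each library of the summed CPM of a transmitter class over the GABA genes, and of Slc18a3 over Chat counts, with DMP libraries left of saline libraries and bars for mean and SD (n = 3 each). Panels have different centres and the same height of scale; Slc18a3 over Chat has the widest spread, from -1.88 to -1.08 over the 6 libraries.

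Single libraries moved the values of Slc32a1, Slc6a9 and Slc18a3 in both directions. Saline 30 was the highest saline library for all 3 genes and saline 33 the lowest. Without saline 30, 0 of the 9 genes had an unadjusted p below 0.05, beside 3.68% of all genes. Log2 fold changes of the 3 genes were then -0.05, -0.05 and -0.25. Without saline 33 they were -0.27, -0.18 and -0.54, with an unadjusted p in edgeR below 0.05 for these 3 of the 9 genes, when 8.21% of all genes reached it. Adjusted p-values were then 0.495, 0.535 and 0.495, the lowest of any alternative for each gene. Without DMP 30 they were -0.24, -0.17 and -0.56, with an unadjusted p below 0.05 for Slc6a9 and Slc18a3, beside 4.46% of all genes. Slc32a1 was at -0.10 and Slc6a9 at -0.07 without DMP 31.

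The 9 genes were ordered by level as FPKM, the authors' values per transcript length. The class ratios and the count ratio of Slc18a3 to Chat above are not corrected for length. Slc6a9 averaged 79.8 ± 4.94 FPKM in DMP libraries and 86.8 ± 7.25 FPKM in saline libraries (SD, n = 3 each), and Gad1 81.8 ± 3.46 FPKM in DMP libraries and 83.7 ± 1.69 FPKM in saline libraries. These were the highest of the 9, and their ranges over the 6 libraries overlapped. Below them, with a gap, came Tfap2b with 18.4 ± 0.804 FPKM in DMP libraries and 17.997 ± 1.44 FPKM in saline libraries. Gad2 followed with 17.0 ± 0.361 FPKM in DMP libraries and 16.7 ± 0.583 FPKM in saline libraries, and its range overlapped that of Tfap2b. Chat averaged 11.6 ± 1.13 FPKM in DMP libraries and 11.3 ± 0.739 FPKM in saline libraries. Slc32a1, whose range overlapped that of Chat, averaged 10.2 ± 0.912 FPKM in DMP libraries and 11.4 ± 1.67 FPKM in saline libraries. From there each step down was larger than the spread. Tfap2a averaged 7.34 ± 0.871 FPKM in DMP libraries and 7.10 ± 0.507 FPKM in saline libraries, and Th 2.76 ± 0.0929 FPKM in DMP libraries and 3.03 ± 0.0705 FPKM in saline libraries. Slc18a3 was lowest, with 1.43 ± 0.302 FPKM in DMP libraries and 1.86 ± 0.396 FPKM in saline libraries.

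The mean FPKM of Slc6a9 was 50.6 times that of Slc18a3. Within classes, Gad1 stood 4.91 times above Gad2, Tfap2b 2.52 times above Tfap2a, and Chat 6.94 times above Slc18a3. Places of Slc32a1 and Slc18a3 in this order are uncertain, and so are both folds over Slc18a3. Dividing counts by FPKM gives the length that the FPKM implies, taking library totals as the same for both tables. That length was 5370 bases for Slc32a1, whose gene spans 4470 bases, and 4344 bases for Slc18a3, which spans 2862. For 10.85% of genes the implied length was longer than the span, and for the other 7 genes here it was shorter. Per kilobase of span, a lower bound per transcript length, Slc32a1 had 13.0 CPM, which would place it above Chat, and Slc18a3 had 2.50 CPM. The latter lies above its mean of 1.65 FPKM, so with this bound both folds over Slc18a3 would be smaller. This bound was chosen after the data were seen.

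**Figure D4:**
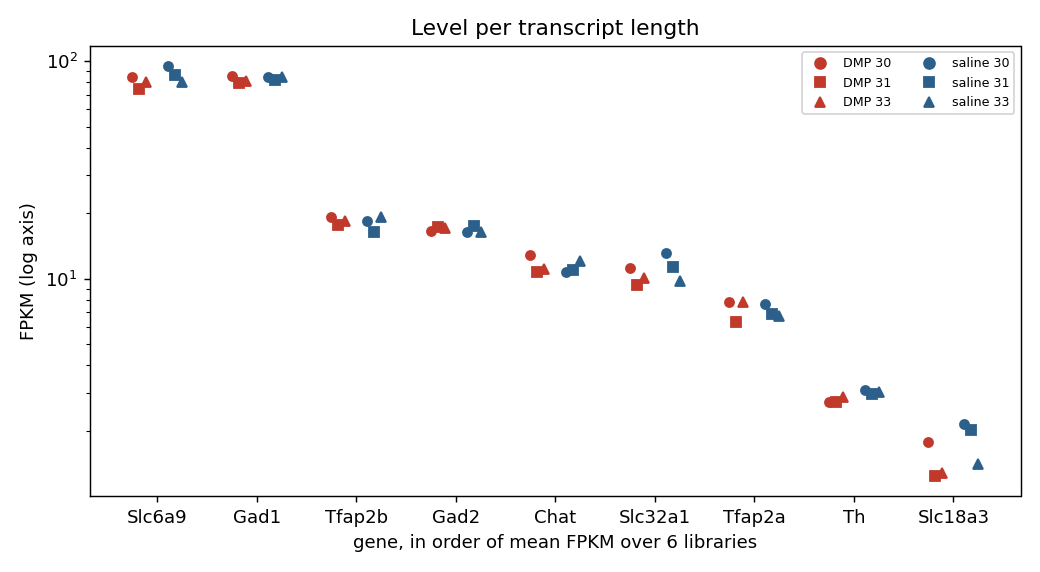
FPKM of each gene in each library on a log axis, genes in order of their mean over 6 libraries, DMP libraries left of saline libraries within each gene. The 9 genes fall from about 83.3 FPKM for Slc6a9 to 1.65 FPKM for Slc18a3; the groups lie close together within each gene, and the ranges of Slc6a9 and Gad1, of Tfap2b and Gad2, and of Chat and Slc32a1 overlap.

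Other genes of the same pathways were followed in 7 lists of 92 genes, of which 90 could be tested. In edgeR 0 of the 90 passed, and 6 (6.67%) had an unadjusted p below 0.05, against 4.64% of all genes. DESeq2 called 1 of the 90, beside 0.495% of all genes, and limma-voom 0, beside 0.0215%. The 6 were Slc6a12, Slc6a13, Drd1, Chrnb4 and Npy, which were lower, and Barhl2, which was higher. Among 16 GABA receptor subunits 0 reached an unadjusted p below 0.05, and the median log2 fold change was -0.01. The smallest p belonged to the subunits Gabrd (5.11 ± 0.483 CPM in DMP libraries, 6.26 ± 1.68 CPM in saline libraries) and Gabra5 (0.865 ± 0.324 CPM in DMP libraries, 1.31 ± 0.615 CPM in saline libraries).

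The list of GABA uptake and breakdown held 6 genes, all tested. Abat, which breaks GABA down, was at 99.9 ± 6.23 CPM in DMP libraries and 105.8 ± 3.18 CPM in saline libraries. Far larger differences were seen for a pair of transporters that in mouse brain are known from the meninges more than from neurons. Slc6a13 was at 1.78, 5.33 and 14.6 CPM in DMP 30, 31 and 33, against 30.4, 21.6 and 30.7 CPM in saline 30, 31 and 33. Slc6a12 was at 0.210, 0.316 and 0.801 CPM in DMP libraries, against 3.44, 1.53 and 2.90 CPM in saline libraries. For both genes all DMP libraries lay below all saline libraries, with DMP 33 the highest of the DMP group. The log2 fold change was -1.93 for Slc6a13 (SE 0.50, edgeR adjusted p = 0.346) and -2.56 for Slc6a12 (SE 0.46, edgeR adjusted p = 0.0969), so neither passed in edgeR. DESeq2 called Slc6a12 (log2 fold change -2.57, adjusted p = 1.03e-05). Of 8 fibroblast markers 0 passed in edgeR and 5 had an unadjusted p below 0.05, against 4.64% of all genes. Among all genes, 50.0% were below 0, and for 4.88% every DMP library lay below every saline library. All 8 fibroblast markers had a log2 fold change below 0, with a median of -1.26, and the groups overlapped for 5. They summed to 38.6 to 65.8 CPM in DMP libraries and 91.7 to 100.1 CPM in saline libraries. Ogn and Fmod, proteoglycans with the smallest p of that list, had log2 fold changes of -1.61 and -1.28. Its members differed in their order over DMP libraries: DMP 33 was the highest of these for Ogn, Fmod, Lum and Col3a1, DMP 31 for Col1a1, Col1a2 and Dcn, and DMP 30 for Pdgfra. Whether cells carried in with the retina bear on Slc6a12 and Slc6a13 was not tested.

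In the glycine pathway the median log2 fold change was -0.08. An unadjusted p below 0.05 was reached by 0 of its 9 genes, against 4.64% of all genes. The receptor subunit Glra1 and the serine hydroxymethyltransferase Shmt2 had the smallest p of that list. Glra1 was at 36.4 ± 3.18 CPM in DMP libraries and 38.8 ± 1.13 CPM in saline libraries, and Shmt2 at 34.0 ± 2.69 CPM in DMP libraries and 36.6 ± 3.94 CPM in saline libraries. Slc6a5, the neuronal glycine transporter of spinal cord and brainstem, was near the lower limit, at 0.602 CPM in DMP libraries and 0.457 CPM in saline libraries. Of 14 tested genes of the dopamine pathway, Drd1, the D1 receptor, had an unadjusted p below 0.05, at 42.9, 47.3 and 45.9 CPM in DMP libraries, against 48.8, 49.9 and 52.0 CPM in saline libraries. All DMP libraries lay below all saline libraries, as for 4.88% of all genes. The log2 fold change of Drd1 was -0.15 (SE 0.06, edgeR adjusted p = 0.993). Maob, a monoamine oxidase, came next, at 9.81 ± 0.489 CPM in DMP libraries and 8.42 ± 0.380 CPM in saline libraries. Slc18a2, the vesicular monoamine transporter, was at 20.7 CPM in DMP libraries and 21.1 CPM in saline libraries. Slc6a3, the dopamine transporter, was too low to test, with counts of 4, 0 and 0 in DMP libraries and 7, 0 and 0 in saline libraries.

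In the acetylcholine pathway the 16 genes had a median log2 fold change of -0.05. Slc5a7, the choline transporter that supplies Chat, was at 18.7, 21.2 and 15.3 CPM in DMP 30, 31 and 33, against 17.9, 20.8 and 18.8 CPM in saline 30, 31 and 33. The libraries of both groups were mixed, with DMP 31 the highest and DMP 33 the lowest. The nicotinic subunit Chrnb4 was at 4.47, 4.38 and 6.45 CPM in DMP libraries, against 6.89, 6.62 and 6.42 CPM in saline libraries (log2 fold change -0.38, SE 0.17, edgeR adjusted p = 1.00). DMP 33 lay at the level of saline 33, so the groups overlapped. Chrnb2, another nicotinic subunit, was at 33.5 ± 2.76 CPM in DMP libraries and 37.5 ± 2.21 CPM in saline libraries.

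Of 15 tested amacrine transcription factors, Barhl2, which acts in amacrine specification in mouse, had an unadjusted p below 0.05. It was at 12.4, 11.5 and 13.9 CPM in DMP libraries, against 10.6, 10.3 and 9.35 CPM in saline libraries. Its log2 fold change was 0.31 (SE 0.11, edgeR adjusted p = 0.763). Of the 15 factors, 6 had a log2 fold change above 0 and 9 below. Lhx9, with the next smallest p, went the other way, with a log2 fold change of -0.27 (SE 0.12). It was at 12.3 ± 0.297 CPM in DMP libraries and 14.8 ± 2.49 CPM in saline libraries. Tfap2c, the third AP-2 gene followed here, was at 21.1 ± 0.129 CPM in DMP libraries and 23.3 ± 2.80 CPM in saline libraries. Among 15 markers of amacrine subtypes, the neuropeptide Npy was at 2.56, 2.82 and 2.87 CPM in DMP libraries, against 6.42, 3.19 and 3.46 CPM in saline libraries. Saline 30 stood above the other libraries of its group. All DMP libraries lay below all saline libraries, as for 4.88% of all genes. The log2 fold change of Npy was -0.66 (SE 0.25, edgeR adjusted p = 0.866). Tac1, another peptide gene, was at 5.01 ± 0.138 CPM in DMP libraries and 5.64 ± 0.694 CPM in saline libraries. Calb2, which encodes calretinin of amacrine and ganglion cells, was at 414.7 CPM in DMP libraries and 414.1 CPM in saline libraries.

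Markers of the cell types that share genes with amacrine cells were at similar sums in both groups. Horizontal cell markers summed to 194.0 to 194.7 CPM with DMP and 190.1 to 205.1 CPM with saline, with a median log2 fold change of -0.05 over 6 genes. Lhx1 (3.57 ± 0.887 CPM in DMP libraries, 4.55 ± 0.640 CPM in saline libraries) and Gja10 (2.64 ± 0.227 CPM in DMP libraries, 3.15 ± 0.447 CPM in saline libraries) had the smallest p of that list. Ganglion cell, bipolar cell and photoreceptor lists had medians of -0.03, -0.02 and -0.01, and Müller glia -0.05. The smallest p belonged to Nefl (-0.06) and Pou4f2 (-0.15) among ganglion cell markers and to Pde6a (0.05) and Nrl (0.04) among photoreceptor markers. For Müller glia they were Rlbp1 and Vim, and Vim, an intermediate filament gene, had a log2 fold change of -0.38 (SE 0.05, edgeR adjusted p = 0.0582). Ganglion cell markers summed to 850.9 to 899.2 CPM in DMP libraries and 840.6 to 923.7 CPM in saline libraries. Of 10 microglia markers 0 passed in edgeR and 7 had an unadjusted p below 0.05, against 0.0215% and 4.64% of all genes. All 10 had a log2 fold change above 0, with a median of 0.59 (Cd68 1.21, Aif1 0.76), and sums were 94.9 to 144.1 CPM in DMP libraries and 64.8 to 91.6 CPM in saline libraries. Of the non-neural lists, lens (median -0.94; Crygc -2.32, Crygd -2.13) and pigment cell markers (median -1.24; Tyr -3.13, Tyrp1 -1.69) were mostly below 0. Surface epithelium (0.91; Krt5 1.36, Krt15 0.52) and pigment epithelium (0.15; Rpe65 0.43, Rlbp1 -0.07) had medians above 0. For these non-neural lists the values in brackets are log2 fold changes, and 0 genes passed in edgeR. Below 0 were 1 of 5 tested surface epithelium genes and 3 of 7 tested pigment epithelium genes. Rpe65 was highest in DMP 30, at 15.2 CPM, against 4.86 and 6.78 CPM in DMP 31 and 33. In saline 30, 31 and 33 it was at 6.08, 4.75 and 9.10 CPM. An unadjusted p below 0.05 was reached by 4.64% of all genes. Among tested markers it was reached by 4 of 10 for lens and 4 of 8 for pigment cells. It was reached by 1 of 5 for surface epithelium and 0 of 7 for pigment epithelium. The part of these markers in the values of the 9 genes was not tested.

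**Figure D5:**
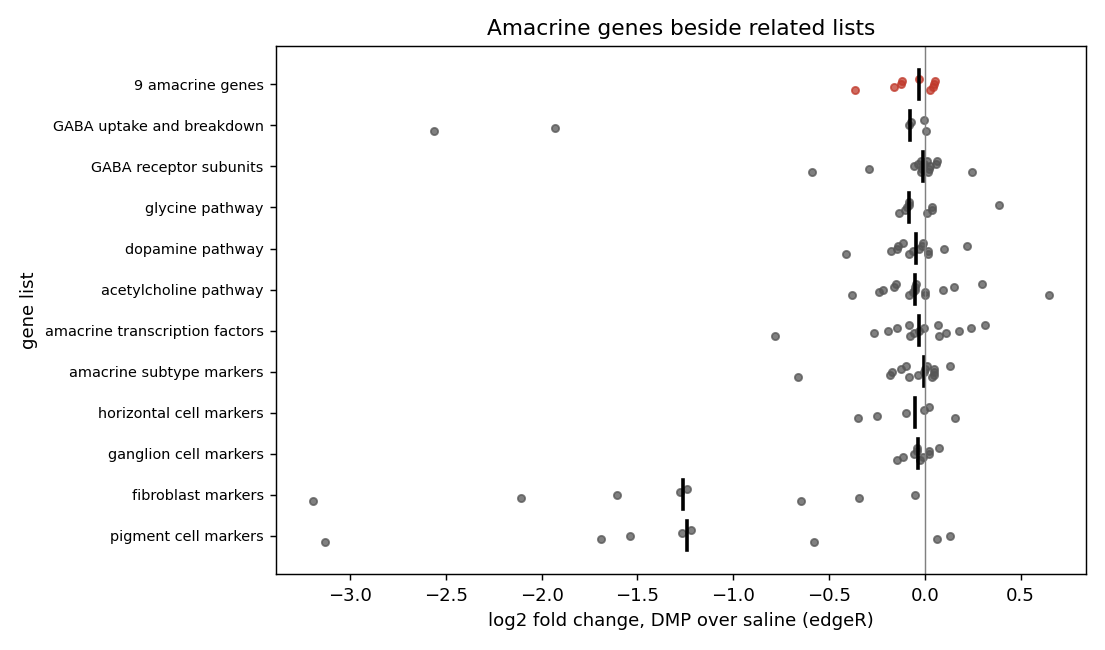
Log2 fold change, DMP over saline, of each tested gene (points) in the 9 amacrine genes and in related lists, with black bars at the medians. The medians of the amacrine genes and of the pathway, horizontal and ganglion cell lists lie between -0.08 and -0.01, while fibroblast and pigment cell markers have medians of -1.26 and -1.24.

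Likeness of pattern was measured as the root mean square difference in log2 CPM over the 6 libraries, after each gene was centred on its own mean, among 15273 genes at 1 CPM or more. Gad1 was closest to Wasf2, Prepl and Eif4g1 (0.00884 to 0.0132) and 6438 of the 15273 genes lay within 0.1 of it. Gad2 was closest to Hax1, Syp and Pdhb, and Slc32a1 to Caly, Isoc2b and Rasgrf1. Slc6a9 was closest to Kif1a, Bcas3 and Fry, and Th to Swsap1, Coasy and Cyria. Chat was closest to Shisa5, Dpy19l3 and Dusp5, Tfap2a to Arrdc2, Lgr6 and Zswim9, and Tfap2b to Cobl, Mmd2 and Larp6. Slc18a3 had the fewest close genes, with 3 within 0.1, which were Tgfbr3, Cavin3 and Rab37 (0.0847 to 0.0972). The number within 0.1 also depends on how much a member itself varies. The root mean square of its centred values was 0.0486 for Gad1 and 0.320 for Slc18a3. No member was among the genes compared, so likeness between the 9 is not part of these ranks.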

How the data were processed

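Per the labels, polyadenylated RNA of whole retina was sequenced from 3 DMP and 3 saline samples, with dUTP marking the second strand and no molecular identifiers mentioned. The submitters' processing notes name cutadapt 1.9, FastQC and mRatBN7.2. Aligner, counter and strand setting: not given in the sources used here. The deposited whole numbers were handled as estimated counts, since a value of 4 occurred in 673 to 741 genes per library, against 301 to 325 genes for 3 and 218 to 254 for 5. The authors' FPKM values came from a second deposited table, whose repeated counts differed in 0 places.

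Counts were tested with edgeR 4.0.16 in R 4.3.3: default filter (minimum count 10, total 15), trimmed mean of M-values scaling, group as the only term, two-sided quasi-likelihood F-test, Benjamini-Hochberg adjustment over 18571 genes at 0.05. The standard error is the absolute log2 fold change over the square root of F. Alternatives were DESeq2 1.42.0, limma 3.58.1 on voom and on log2(FPKM + 0.1) or log2(FPKM + 1), other scaling and filters, the sample number as a block, and leaving out each library.

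The 9 genes and all lists were chosen with earlier results of these data known. Text names, for other lists, genes past the threshold or else those with the 2 smallest p (for bipolar cells these are not reported here), every gene with an unadjusted p below 0.05 in the 7 pathway lists, the 3 most alike genes for each member, and genes of known role (Pax6, Ptf1a, Abat, Slc6a5, Slc18a2, Slc6a3, Slc5a7, Tfap2c, Calb2, Oca2, and Lum, Col3a1, Col1a1, Col1a2, Dcn and Pdgfra) picked after their values were seen. Of 201 list symbols, 200 matched the count table. Positions are from the authors' table on mRatBN7.2, chromosome names and sequences from RefSeq on GRCr8. A read copied by PCR cannot be told from an independent fragment.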

Additional observations from a re-analysis of the deposited data

How the results depend on the processing

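None of the 9 genes passed an adjusted p of 0.05 in any of 15 alternatives (edgeR scaling, filters, replicate block and leave-one-out, DESeq2, limma), where the lowest adjusted p was 0.495. At an unadjusted p below 0.05 there were 3 genes without saline 33, 2 without DMP 30 (Slc6a9 and Slc18a3) and 2 with the replicate block (the same 2), beside 8.21%, 4.46% and 5.03% of all genes. Direction was kept in 131 of 135 refits of single genes. With a library left out, Chat ranged from -0.0464 (without DMP 30) to 0.0979, Tfap2a from -0.0068 (without DMP 30) to 0.148, and Tfap2b from -0.0219 (without saline 31) to 0.0844, with -4.63e-05 without DMP 30. Chat summed with Slc18a3 gave -0.0575, a choice made after the data were seen. The cause was not tested. With a library left out, class medians ran from -0.07 to -0.0037 for GABA, -0.18 to -0.05 for glycine, -0.15 to -0.11 for dopamine, -0.31 to -0.09 for acetylcholine and -0.0034 to 0.11 for AP-2. Class ratio differences ran from -0.09 to 0.01 for acetylcholine, -0.12 to -0.04 for dopamine, -0.12 to -0.03 for glycine and 0.04 to 0.13 for AP-2, so the sign of the acetylcholine difference and of the AP-2 median is not firm. The order of levels kept 7 of 9 places in either group alone and with the span bound. Counts over the implied length kept all 9 by construction, since that length was derived from the FPKM, so they are no check of the order.

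Over all genes, 4 passed; the count was 13 with the stricter filter (1 CPM in 3 libraries), 92 with DESeq2, 1 and 0 with limma on log2(FPKM + 0.1) and log2(FPKM + 1), and 0 (without DMP 31) to 81 (without DMP 33) when a library was left out, with 9 without DMP 30 and 2 without saline 33. At an unadjusted p below 0.05, 984 genes stood beside the 0 of log2(FPKM + 1) and 834 beside the 0 without DMP 31. The replicate block gave 45 calls. The shared numbers are not stated to pair samples, so the block was not used for calls. Deviations of same-numbered libraries correlated by 0.0659, 0.035 and 0.0281, and those of differently numbered libraries by -0.0794 to 0.0463. With 3 libraries per group these values cannot decide whether the samples are paired. Slc18a3, at 257 to 475 counts, was the least precise of the 9 genes: the lower end of its interval is a change of -42.4%.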
